A study of Mus musculus with 4 samples.

Results

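The 4 Janus kinase (JAK) genes of the mouse, Jak1, Jak2, Jak3 and Tyk2, were followed together with the genes whose exons overlap theirs on the opposite DNA strand. The rule took any exon overlap of at least 1 base and found Raver2 at Jak1 and the antisense gene 1700084C06Rik at Tyk2, but no such gene at Jak2 or Jak3. The set therefore held 6 of the 50600 annotated genes. Fragments per gene were counted in 4 libraries of primary cells labelled T-helper 2 (Th2), the helper T cells that make interleukins 4, 5 and 13, from mice of strain C57BL/6NJ. The libraries are biological replicates 1 to 4 of 1 group, with no treatment, control or second genotype. They share 1 donor identifier, and the labels give neither the sex nor the age. The file headers place the cells at 0 h of a Th1 and Th2 time course, while the labels give no time. Whether the replicates came from separate mice is not stated, so p-values measure the spread between these samples, which may be technical.

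JAKs are tyrosine kinases held on the inner side of cytokine receptors, which have no kinase activity of their own. When a cytokine joins its receptor chains, the bound JAKs activate each other, phosphorylate the receptor and then the STAT transcription factors. In T cells, Jak1 and Jak3 serve the receptors that share the common gamma chain, among them that of interleukin 4, which acts through Stat6 in Th2 differentiation. Jak2 serves receptors such as those of interferon gamma, interleukin 12 and erythropoietin, and Tyk2 serves those of type I interferons, interleukin 10 and interleukin 12. Raver2 is an RNA-binding protein and a paralogue of Raver1.

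The totals were 2131288, 2351916, 1923157 and 1452053 counts in replicates 1 to 4. A count is a fragment assigned to the annotated strand of a gene, and it was not read as a transcript level. The reason is that the 8189 genes with an opposite-strand exon overlap, 16.2% of all genes, held 88.6% ± 1.06 of the counts (SD, n = 4). Whether the strand setting of the counting matches the library kit was not checked here. Which gene of an opposite-strand pair a count belongs to depends on that setting. For each such pair below, the direction of the difference holds for the counts as deposited. The setting applies to every gene, so the levels, ranks and lists below, also for Jak2 and Jak3, carry the same limit. All 10 fixed T cell markers reached a mean of 1 TPM (counts per exon length, scaled to the same sum in every library). Their summed level was 405 to 567 TPM per library. Of these, Cd247, at 174 ± 31.2 TPM, overlaps 3007 exon bases of Pou2f1, and Cd3e overlaps 135 of Gm48719. Of 8 Th2 markers 3 reached a mean of 1 TPM, Gata3, Il4 and Ptgdr2, while Il5 and Il13 had 0 counts. Ptgdr2 overlaps 1031 exon bases of Ccdc86, and Gata3 overlaps 155 of Gm13256. Among markers of other cells, Cd79a of B cells had 39.0 ± 3.91 TPM, Csf1r of macrophages, which overlaps 871 exon bases of Hmgxb3, 107 ± 10.7 and Cpa3 of mast cells 42.4 ± 11.9. On the same lists Ighm had 22.7 ± 7.53 TPM, Tyrobp 14.1 ± 4.89 and Hdc 3.66 ± 0.883. Ms4a1, Lyz2, Adgre1, Kit and Fcer1a, further markers of those cells, had 0 counts in all libraries. A mean of 1 TPM was also reached by 2 of 4 erythroid markers (Alas2 and Klf1) and 1 of 4 of stroma and endothelium (Pecam1). For cytotoxic T and NK cells it was 2 of 6 (Cd8b1 and Prf1), and for dendritic cells 0 of 4. The part of other cells in the values below was not tested. In bulk samples, fewer cells of a type and less RNA per cell cannot be told apart.

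The overlaps at the kinase genes differ in kind. On mm10 (GRCm38), Jak1 (ENSMUSG00000028530.14) lies on the minus strand of chromosome 4 from 101152367 to 101265282, and Raver2 (ENSMUSG00000035275.14) on the plus strand from 101068983 to 101152370. They meet tail to tail and share 4 bases, the ends of both 3′ UTRs, out of 7227 exon bases of Jak1 and 6342 of Raver2. Tyk2 (ENSMUSG00000032175.11) lies on the minus strand of chromosome 9 from 21104068 to 21131243. The gene 1700084C06Rik (ENSMUSG00000086016.1) lies on the plus strand from 21091755 to 21128393 and has 2 exons with 750 bases in all. Its exon 2, of 554 bases, falls inside a Tyk2 exon that belongs to a retained-intron transcript, and none of its bases are opposite to coding sequence of Tyk2. Its exon 1, of 196 bases, has 192 bases opposite to coding sequence of Raver1. The deposited tables give 1 count for both exons together, so how the counts divide between the Tyk2 side and the Raver1 side is not known.

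The exons of 1700084C06Rik are shown because together they held 4159 counts over the 4 libraries, against 88 of Tyk2, with the division between them unknown. They were read 5′ to 3′ on the plus strand from the transcripts of GENCODE release 21 (GRCm38), at chr9:21091755-21091950 for exon 1 and chr9:21127840-21128139 for the first 300 bases of exon 2. Capitals mark bases opposite to an exon of Raver1 in the first and of Tyk2 in the second.
1700084C06Rik exon 1: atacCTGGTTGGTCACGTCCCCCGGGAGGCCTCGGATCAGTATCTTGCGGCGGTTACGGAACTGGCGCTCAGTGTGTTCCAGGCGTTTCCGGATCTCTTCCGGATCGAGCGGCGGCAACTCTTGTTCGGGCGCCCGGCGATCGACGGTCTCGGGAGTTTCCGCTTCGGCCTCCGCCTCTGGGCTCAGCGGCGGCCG
1700084C06Rik exon 2, first 300 bases: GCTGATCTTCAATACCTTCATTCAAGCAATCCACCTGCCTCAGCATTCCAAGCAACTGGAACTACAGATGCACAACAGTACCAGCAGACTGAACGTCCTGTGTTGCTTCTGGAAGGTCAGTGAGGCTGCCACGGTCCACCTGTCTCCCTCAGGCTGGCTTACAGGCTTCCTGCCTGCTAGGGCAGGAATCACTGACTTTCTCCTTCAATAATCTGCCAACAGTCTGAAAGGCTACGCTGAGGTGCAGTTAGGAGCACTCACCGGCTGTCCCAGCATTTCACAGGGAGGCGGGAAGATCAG

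Jak1 held most of the counts among the kinases. It had 174, 373, 283 and 167 counts in replicates 1 to 4, or 16.8, 34.8, 30.0 and 24.1 TPM. Replicate 1 was the lowest and replicate 2 the highest on the TPM scale. Of the 1298 counts of all 4 kinase genes Jak1 had 997, a share of 76.3% ± 5.06 (SD, n = 4), between 69.0% and 80.9% in each library. Its mean of 26.4 ± 7.77 TPM ranked 1109th of 21764 protein-coding genes.

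Jak2 (ENSMUSG00000024789.12, chromosome 19, 29251828 to 29313080, plus strand) had 28, 35, 27 and 14 counts, or 3.87, 4.69, 4.11 and 2.90 TPM. Replicate 4 was the lowest, with few counts behind it. Jak3 (ENSMUSG00000031805.17, chromosome 8, 71676296 to 71690575, plus strand) had 21, 42, 29 and 17 counts, or 2.73, 5.28, 4.15 and 3.31 TPM. The TPM ranges of Jak2 and Jak3 overlapped. On its own strand Jak3 shares 404 of its 5352 exon bases with Insl3, a hormone gene of the insulin family. The header's command has no option to count fragments that lie in exons of several genes on a strand, so such fragments were left out for both.

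Tyk2 had 29, 31, 11 and 17 counts, or 2.94, 3.04, 1.23 and 2.58 TPM. Replicate 3 stood lowest and the other libraries lay close together. All 4 kinase genes and Raver2 reached a mean of 1 TPM, which 34.0% of protein-coding genes did. The share was 57.9% among the 4801 coding genes with an opposite-strand exon overlap and 27.2% among the 16963 without. Among the 7390 genes that did, 85.0% had a lower mean TPM than Jak1, 49.7% a lower one than Jak2, 49.5% than Jak3 and 33.9% than Tyk2.

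Per exon length the order was Jak1, Jak2, Jak3, Tyk2, with strands as counted. Mean levels were 26.4 ± 7.77, 3.89 ± 0.743, 3.87 ± 1.11 and 2.45 ± 0.837 TPM in that order (SD, n = 4). Jak1 was higher than each other kinase gene in all 4 libraries. From counts summed over libraries it was 6.67-fold higher than Jak2 (95% interval 5.45 to 8.25), 6.77-fold higher than Jak3 (5.55 to 8.33) and 10.8-fold higher than Tyk2 (8.65 to 13.5). Jak2 and Jak3 did not differ beyond their spread. The log2 ratio of Jak2 to Jak3 was 0.03 ± 0.32, positive in 1 of 4 libraries, and the fold of summed counts was 1.02 (0.768 to 1.34). Jak2 exceeded Tyk2 in 4 of 4 libraries, by 0.71 ± 0.67 on the log2(TPM + 0.1) scale, and Jak3 exceeded Tyk2 in 3 of 4, by 0.68 ± 0.76. Without replicate 3, in which Tyk2 was lowest, these differences were 0.39 and 0.34. They were 0.28 and 0.34 with CPM not divided by exon length, and in counts Tyk2 exceeded Jak2 in replicates 1 and 4. By the exact two-sided sign-flip permutation over 4 libraries, whose smallest p is 2/16, the 4 pairs with 1 sign had that p. Adjusted over the 6 pairs by the Benjamini-Hochberg method it was 0.1875, so no pair could pass 0.05. Intervals of folds are exact (Clopper-Pearson) and cover counting error only.

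**Figure D1:**
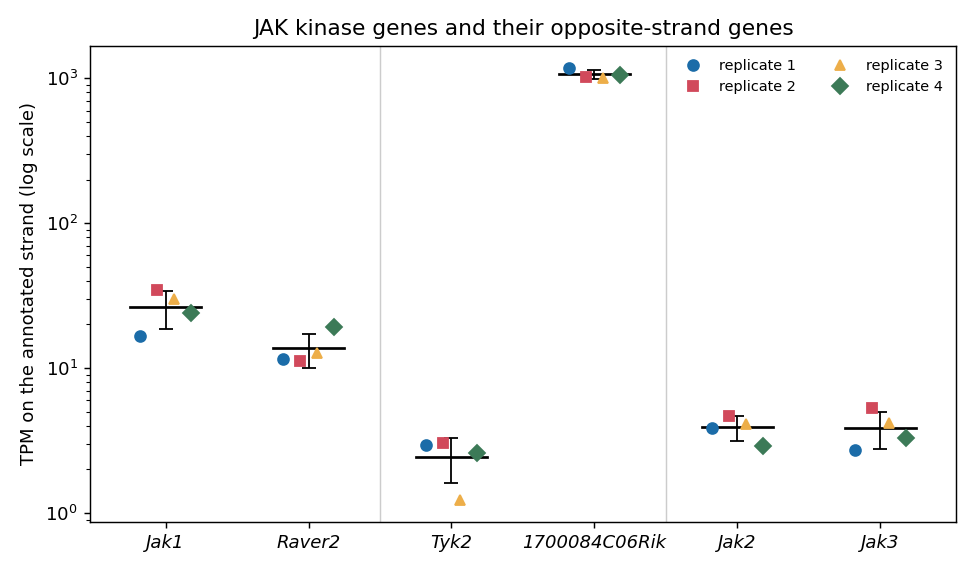
TPM on the annotated strand (log axis) of Jak1 with its opposite gene Raver2, Tyk2 with its opposite gene 1700084C06Rik, and Jak2 and Jak3, which have none. Points are the 4 libraries, horizontal lines the means and bars the SD; the opposite gene of Tyk2 lies near 1066.6 TPM, while the 4 kinase genes lie between 1.23 and 34.8.

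Raver2, opposite to Jak1, had nearly the same count in every library, 106, 106, 105 and 116, although library totals differed. Scaled to them it had 11.6, 11.3, 12.7 and 19.1 TPM, with replicate 4 apart from the others. Jak1 exceeded it per exon length in all 4 libraries. The ratio of Jak1 to Raver2 was 1.44 in replicate 1 (95% interval 1.13 to 1.85), 3.09 in replicate 2 (2.48 to 3.87), 2.37 in replicate 3 (1.88 to 2.99) and 1.26 in replicate 4 (0.991 to 1.62). The counting intervals of replicates 2 and 3 lay above those of replicates 1 and 4. That grouping was read from the same ratios and was not tested, and the intervals cover counting error only. Over the 4 libraries the log2 ratio of (TPM + 0.1) was 0.93 ± 0.60 (SD, n = 4), with the smallest p of the exact sign-flip permutation, 2/16, also when adjusted over the 2 pairs.

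At Tyk2 the order was the other way. Tyk2 had 11 to 31 counts per library, against 1280, 1139, 987 and 753 counts of 1700084C06Rik in replicates 1 to 4. The opposite gene had 1188, 1023, 1008 and 1047 TPM, and its range did not overlap that of Tyk2. Per exon length Tyk2 had 0.248% of the counts of the opposite gene in replicate 1, 0.297% in replicate 2, 0.122% in replicate 3 and 0.247% in replicate 4. The opposite gene was 433-fold higher by summed counts (95% interval 350.3 to 541), with strands as counted. This setting was not checked, and no value with strands exchanged was computed. Exon 1 lies outside Tyk2 but is counted in the opposite gene. The log2 ratio of Tyk2 to it was -8.78 ± 0.54 (SD, n = 4), negative in all 4 libraries (exact sign-flip permutation, p again 2/16, adjusted over the 2 pairs or not). With a mean of 1067 ± 82.5 TPM, 1700084C06Rik ranked 76th of 2566 genes annotated as antisense, under the same strand setting.

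**Figure D2:**
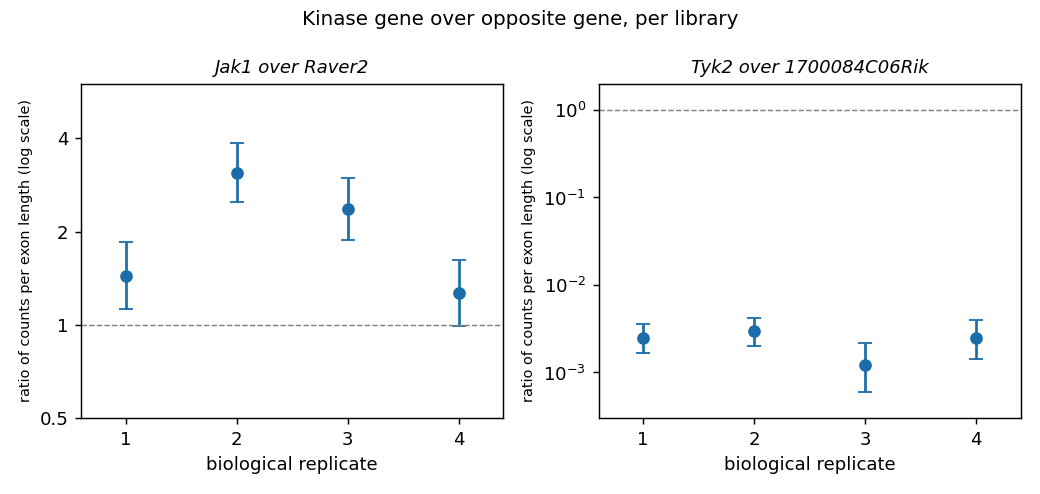
Ratio of counts per exon length (log axes), kinase gene over opposite gene, in each of the 4 biological replicates with exact 95% counting intervals; the dashed line marks equal density. Jak1 lies at 1.26 to 3.09 times Raver2, and Tyk2 at 0.00122 to 0.00297 times 1700084C06Rik.

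Both pairs were set beside all opposite-strand pairs with a mean of at least 20 counts. In 1244 pairs a protein-coding gene overlaps a gene not typed as protein-coding by at least 100 bases. The coding gene was less dense in all 4 libraries in 85.0% of them, as at Tyk2. The median log2 ratio of those pairs was -5.90, and 164 of them, 13.2%, had a lower ratio than Tyk2. In 232 pairs both genes are protein-coding and share fewer than 100 bases, as at Jak1. In 40.5% of them the minus-strand gene was denser in all 4 libraries, and 86.6% kept 1 sign, so 1 sign at Jak1 was the usual case. Jak1 over Raver2 was closer to equality than most, since 19.0% of those pairs had a smaller ratio in either direction. These shares are descriptions and carry no test.

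**Figure D3:**
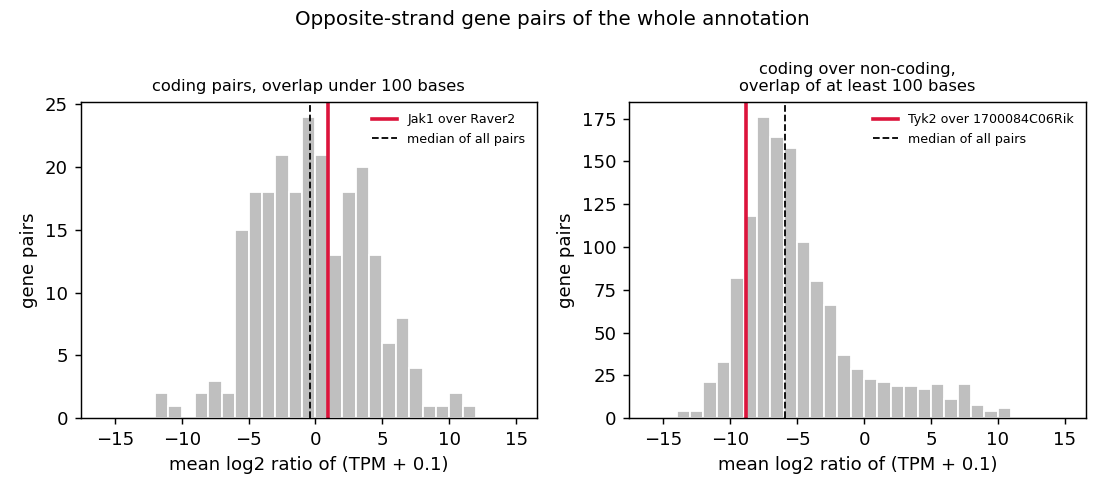
Histograms of the mean log2 ratio of (TPM + 0.1) over 4 libraries. Left, 232 pairs of coding genes with an overlap under 100 bases, minus-strand over plus-strand gene. Right, 1244 pairs of a coding gene over a gene not typed as protein-coding (titled non-coding), with at least 100 bases. Red lines mark Jak1 over Raver2 at 0.93 and Tyk2 over 1700084C06Rik at -8.78; dashed lines mark the medians, -0.39 and -5.90.

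The flanks of the kinase genes also held unequal counts. Within 50 kb of Tyk2 the same strand carries Raver1, which had 0 counts in all libraries (which allows up to 1.28 to 2.07 CPM, counts scaled to the library total). Raver1 shares 99.7% of its exon bases on its own strand with Gm38431, where fragments could not be assigned to either, and Gm38431 had 9 counts in all. Cdc37, which brings kinases to the chaperone Hsp90, has its 3′ end 1979 bases from the 5′ end of Tyk2 and had 74, 106, 62 and 31 counts, or 6.19 ± 1.96 TPM (SD, n = 4). The phosphodiesterase gene Pde4a on the opposite strand had 40 counts in all.

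The strand opposite to Jak3 held more counts, most of them in Unc13a. The 5 opposite-strand genes within 50 kb held 3704 counts in all, against 109 of Jak3. Unc13a, known for priming synaptic vesicles in neurons, begins 4539 bases away and had 819, 896, 817 and 547 counts, or 46.9 ± 2.16 TPM. It overlaps 495 exon bases of Colgalt1 on the strand of Jak3. B3gnt3, a glycosyltransferase gene whose 3′ end lies 181 bases past that of Jak3, had 59, 29, 84 and 57 counts, or 15.1 ± 6.66 TPM, against 3.87 ± 1.11 TPM of Jak3. Replicate 2 had the lowest count of B3gnt3 and the highest of Jak3. In replicate 3, however, B3gnt3 had its highest count and Jak3 its next highest. The pseudogene Gm18860 had 75.9 ± 25.1 TPM, the endocytic gene Fcho1 had 106 counts in all, and Insl3 had 2.

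Jak2 has no neighbour on its strand within 50 kb, and on the other strand the hormone genes Insl6, 8264 bases away, and Rln1 had 0 counts. Plgrkt, a plasminogen receptor gene, had 3.70 ± 0.733 TPM, against 3.89 ± 0.743 TPM of Jak2. Near Jak1, the non-coding gene Gm12796, on the strand of Jak1 and 27132 bases away, had 14, 18, 35 and 7 counts. The snRNA gene Gm24468 inside a Jak1 intron had 8 counts in all.

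**Figure D4:**
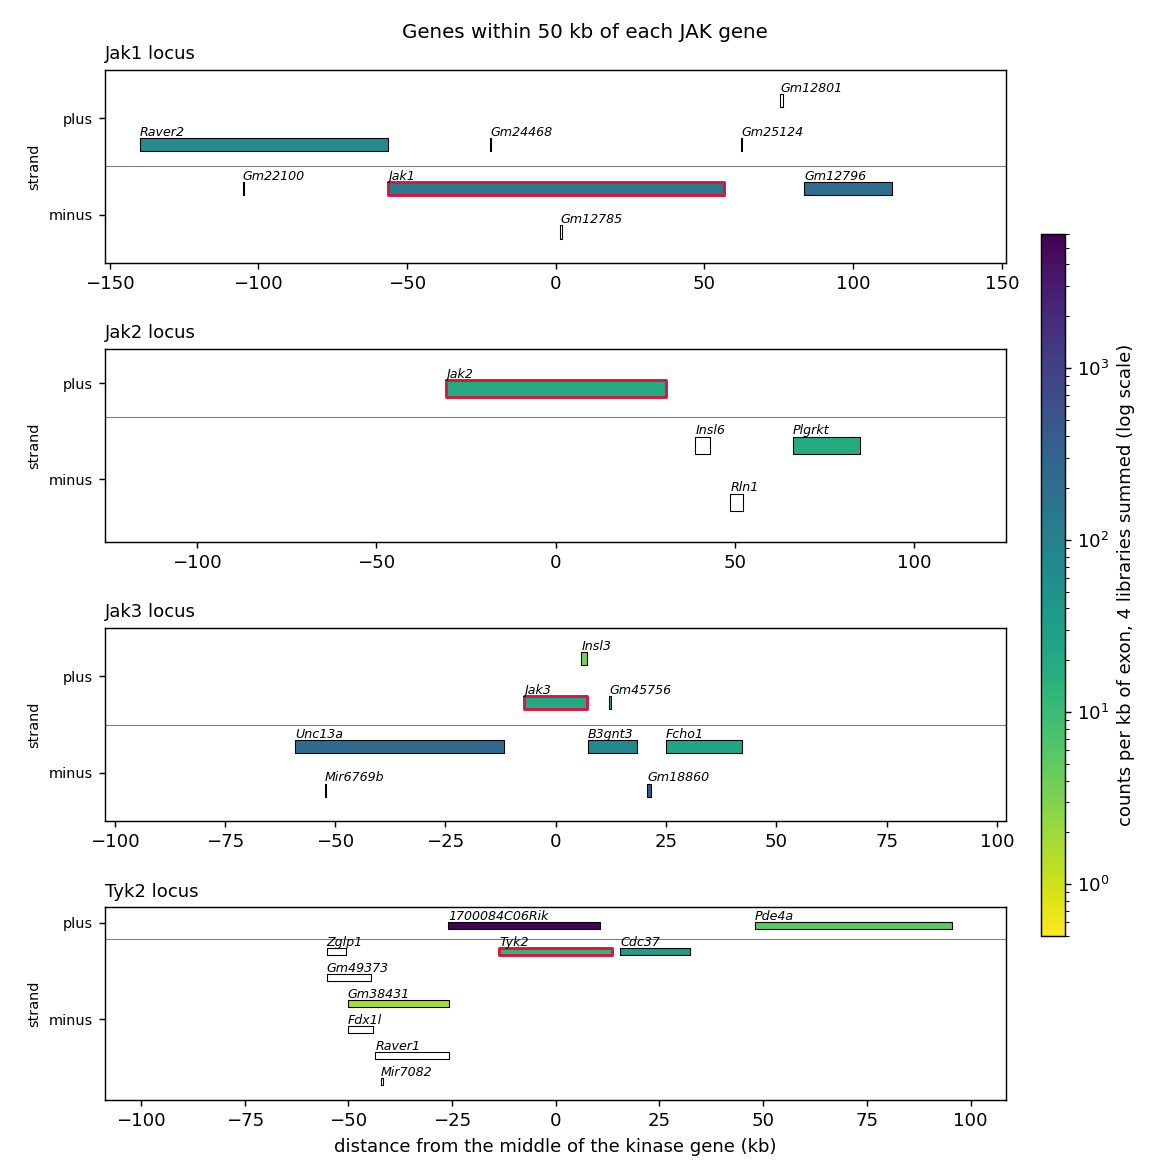
Genes within 50 kb of each kinase gene (red outline), drawn by strand against the distance in kb from the middle of the kinase gene. Colour gives counts per kb of exon summed over 4 libraries (log scale) and white means 0 counts; very short genes appear as lines, and 1700084C06Rik has 5545 counts per kb against 12.8 of Tyk2.

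Spread between libraries was compared with that of genes of like abundance. In edgeR's quasi-likelihood fit over 5755 genes, 0.278% passed an F test of the gene's dispersion against the trend at an adjusted p of 0.05, and 0 of the 6 did, also with DESeq2 size factors. The genes that passed numbered 16, and 7 to 10 when any 1 of the 4 libraries was left out. At an unadjusted p of 0.05, 4.95% of genes and 1 of the 6 passed. That gene was Jak1, at 3.45 times the trend (edgeR adjusted p = 0.810), and at 0.984 times without replicate 1 to 4.72 times without replicate 4. Tyk2 stood at 1.52 times the trend, and at 0.0217 times without replicate 3 to 2.47 times without replicate 2. Raver2 stood at 1.67 times, and at 0.0380 times without replicate 4 to 2.38 times without replicate 3. Jak2 stood at 0.237 times, and at 0.0700 times without replicate 4 to 0.347 times without replicate 1. Jak3 stood at 0.609 times, and at 0.323 times without replicate 2 to 0.853 times without replicate 3. The antisense gene 1700084C06Rik stood at 0.775 times, and at 0.309 times without replicate 1 to 1.39 times without replicate 2.

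The pathway around the kinases was described with 9 lists of 93 genes, and 46 of them, 49.5%, reached a mean of 1 TPM, against 34.0% of all protein-coding genes. An opposite-strand exon overlap was present in 21 of the 93, and the shares for all coding genes with and without one were 57.9% and 27.2%. Of the 16 receptor chains linked to Jak1, some of which bind cytokine and signal through a partner, 10 did. Il7r, the interleukin-7 receptor, had 109, 184, 209 and 115 counts, and Il6ra, which overlaps Gm42809, had 160, 337, 353 and 140. Il4ra, the interleukin-4 receptor chain, had 47, 63, 33 and 20 counts, or 5.05 ± 1.57 TPM (SD, n = 4), and overlaps Gm44876. Il9r, Il22ra1, Lifr and Osmr had 0 counts in all libraries. Il2rg, the common gamma chain that binds Jak3, had 33, 32, 9 and 33 counts, or 8.99 ± 4.73 TPM, with replicate 3 the lowest.

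Of 14 Jak2-linked chains 2 reached 1 TPM, Il12rb2 of the interleukin-12 receptor at 12.3 ± 3.16 TPM, overlapping Serbp1, and Ifngr2 of the interferon gamma receptor at 2.50 ± 1.05 (SD, n = 4). The receptor genes Prlr, Csf2rb, Csf2rb2, Il5ra and Lepr were among those with 0 counts. Of 4 Tyk2-linked chains 2 did, Ifnar1 of the type I interferon receptor at 2.23 ± 0.733 TPM and Il10rb of the interleukin-10 receptor at 1.33 ± 0.294, and Il12rb1 had 1 count.

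All 7 STAT genes reached 1 TPM, with Stat6 at 11.6 ± 2.11, Stat5b at 5.82 ± 1.59 and Stat4 lowest at 1.03 ± 0.512 TPM (SD, n = 4). Stat6 overlaps 40 exon bases of Nab2. Among 8 genes of the SOCS family, which encode feedback inhibitors of JAK signalling, 3 did. Socs3 had 187, 269, 179 and 153 counts, while Socs1 had 0, 5, 0 and 7 and Socs2 none. Of 15 other regulators 12 did, led by the adaptor gene Sh2b3 at 24.1 ± 2.64 TPM, which overlaps Atxn2, and the phosphatase gene Ptprc at 22.7 ± 5.21. The adaptor gene Sh2b2 had 0 counts.

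Of 20 cytokine genes 3 reached 1 TPM. Il27 had 47, 44, 43 and 18 counts, or 27.9 ± 6.53 TPM, and overlaps 103 exon bases of Apobr, and Il4 had 14, 12, 25 and 2 counts. The cytokine genes with 0 counts were Il3, Il5, Il7, Il9, Il12a, Il12b, Il13, Il15, Il23a, Csf2, Ifng, Tslp and Lif. Of 12 STAT target genes 9 did, led by Socs3 and by Irf1, a transcription factor, at 96, 106, 113 and 104 counts, and Cish, a SOCS family member, was lowest with 0, 1, 6 and 2. Across the lists, 8 pairs of a coding gene and an opposite gene not typed as protein-coding, with at least 100 shared bases, could be compared. In 8 of 8 the coding gene was less dense in all libraries, against 85.0% of all such pairs. They involved Cish, in 2 pairs, Il4ra, Bcl2, Pim1, Gata3, Ptpn6 and Il6ra.

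**Figure D5:**
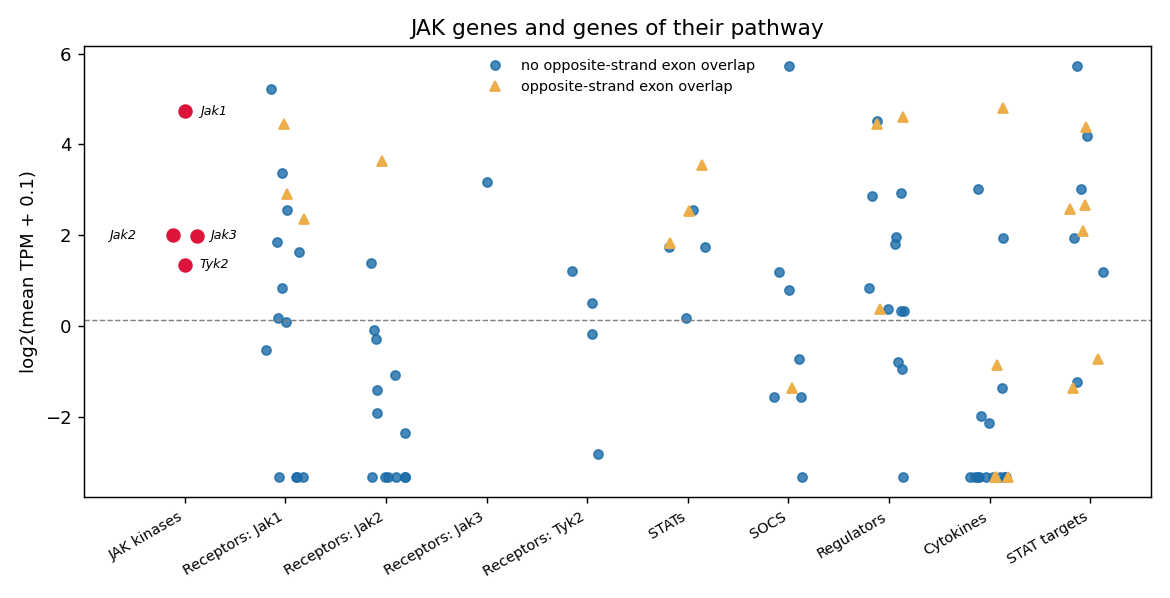
Mean level over 4 libraries, as log2(mean TPM + 0.1), of the 4 kinase genes (red) and of each gene in the pathway lists, with triangles for genes that overlap an opposite-strand exon. The dashed line marks 1 TPM; Jak1 lies at 26.4 TPM and the other kinases at 2.45 to 3.89, and the lowest points are genes with 0 counts.

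Protein-coding genes with the most similar values over the 4 libraries were found by the root mean square difference of log2(TPM + 0.1). For Jak1 these were Ets1, at 17.7, 34.2, 30.3 and 24.2 TPM in replicates 1 to 4 (difference 0.0433), Ctsz and Rap1b. For Jak2 they included Med14 and Mdn1. They were for Jak3 Ptpn1, Cmah and Smg1, and for Tyk2 Trappc12, Slc35g3 and H2-Eb1. Of the 12 genes nearest to the kinases 1 overlaps an opposite-strand exon, against 2778 of the 7390 coding genes at a mean of 1 TPM or more. The 6 genes nearest to Raver2 (Myo9a, Tbl3 and Exoc5) and to 1700084C06Rik (Taf10, Ddx39 and Rad9a) all do; the share among all genes at those levels was not computed. All 18 differences lay between 0.0433 and 0.141, and no test was attached to them.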

How the data were processed

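RNA was sequenced from 4 libraries of 1 group. Each library has a deposited table of unnormalized fragment counts. Per the file headers, these came from featureCounts 1.4.6-p4, run on STAR alignments with both mates required and strand setting 1, and exons were taken from GENCODE M13. The build is mm10, per the labels. The other deposited column used is the exon length in bases. Per the labels, total RNA was sequenced, but the linked protocol's name refers to polyA+ libraries. Signal tracks of each strand were not analysed here.

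Calculations used Python 3.11.15 with pandas 2.3.3. Symbols matched 50376 of 50600 gene identifiers, and types came from GENCODE release 21, in which the 6 genes have the same coordinates. Exon overlaps were found with bedtools 2.31.1. CPM and TPM were computed from the deposited counts, and log2 ratios used a pseudocount of 0.1 TPM. Ratios between genes were tested within libraries by an exact two-sided sign-flip permutation, for which 16 sign patterns exist. Spread was fitted with edgeR 4.0.16 in R 4.3.3 (intercept only, TMM, filterByExpr). The fit was also run on simulated data, and the outcome of that run is not reported here. DESeq2 1.42.0 gave alternative size factors. No libraries were copies of each other (chi-square per degree of freedom 6.29 to 24.8 for the 6 library pairs). A count of 0 allows up to 3 counts.

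The members, lists and tests were chosen with earlier results of these data known. Genes named are the members, genes within 50 kb of a kinase gene, the 2 highest, the lowest and the zero-count members of each list, and the 3 protein-coding genes nearest in level. Some genes that this rule takes are not reported here. Il4ra, the genes of the 8 pathway pairs and the markers were named after their values were seen.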

Additional observations from a re-analysis of the deposited data

Results flagged for a closer look

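Of 38 values with at least 20 counts or a ratio that were checked for 1 library apart from the other three, 3 had a gap above Dixon's critical value, which chance exceeds in about 1 in 20 groups. The gap is given as a share of the whole range. Unc13a, the opposite-strand neighbour of Jak3, had 425 CPM in replicate 3 and 377 to 384 CPM in the others, a gap of 0.843. Ifngr2 had 20 counts in replicate 2 and 7 to 9 counts, or 4.16 to 4.82 CPM, in the others, a gap of 0.848. Stat4 had 0.689 CPM in replicate 4 and 3.12 to 3.40 in the others, a gap of 0.896, with 1 count behind the low value. No member of the set was among them.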

How the results depend on the processing

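No ratio between genes could pass 0.05 under any setting run, so for ratios the alternatives bear only on direction and size. The ratio of Jak2 to Jak3, 0.030 on the log2 scale, reversed to -0.0575 with TMM-scaled CPM not divided by length, and ranged from -0.123 to 0.102 with each replicate left out (negative without replicate 1). The other ratios between members kept their direction under the alternatives run. Without division by length, Jak2 over Tyk2 was 0.28 and Jak3 over Tyk2 0.34 on the log2 scale, against 0.71 and 0.68, and the exact permutation p was 0.75 for both. With each replicate left out they ranged from 0.39 to 0.89 and from 0.34 to 0.93. With the total of protein-coding genes outside the mitochondrial genome as the denominator, mean CPM was 256 for Jak1, 26.3 for Jak2, 27.8 for Jak3, 22.7 for Tyk2, 117 for Raver2 and 1077 for 1700084C06Rik, against 126, 12.9, 13.6, 11.1, 57.3 and 529. The number of genes more variable than the trend was 16, and 7 to 10 with any 1 replicate left out, where fewer libraries enter the fit. The dispersion of single members moved more, as given with their values. At 0.5 TPM, 4 of 14 Jak2-linked chains were detected. At 2 TPM, 1 of 4 Tyk2-linked chains and 7 of 15 regulators were. With overlaps of at least 100 bases Jak1 has no opposite gene. Jak2, Jak3 and Tyk2 rest on 88 to 109 counts each over all libraries, so a difference between Jak2 and Jak3 was not detectable at this depth, within the interval given. Samples could not be paired between groups because there is 1 group, while ratios between genes were taken within each library.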
